A study of Mus musculus with 6 samples.

Results

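The 10 genes described here encode pumps and channels that move calcium across the membranes of the endoplasmic reticulum and the cell surface, and a calcium sensor (Stim1). They are Atp2a2, Atp2a3, Atp2b1, Trpm2, Trpm7, Stim1, Orai1, Itpr1, Itpr2 and Itpr3. They were taken by gene symbol from a table of 15469 protein-coding genes, all 10 were found, and all 10 had enough counts to be tested. The list was drawn up with the difference between the groups already known for these libraries. The values of its members between the groups are therefore given as a description and support nothing. No p-value is printed for a member, and members that passed a threshold are counted for description only. RNA was sequenced from mouse peritoneal macrophages of the CAIA model, an abbreviation that the labels do not spell out. Cells carrying RELM-α at the surface, a secreted resistin-like protein, were sorted and then plated in culture. The KO group (3 libraries) is of cells whose PU.1 the labels call deleted, and the WT group (3 libraries) is of cells they call controls and no more. Neither the deletion's allele or driver, the strain, the age of the mice nor the time in culture is stated in the labels, and no label says whether the 3 libraries of each group are different mice, different cultures or repeats. The comparison was made to ask how PU.1, an ETS-family transcription factor of myeloid cells encoded by Spi1, acts on ferroptosis, an iron-dependent cell death.

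Resting cells keep cytosolic calcium low by pumping it into the endoplasmic reticulum with SERCA pumps and out of the cell with PMCA pumps. Receptors that raise inositol trisphosphate (IP3) open IP3 receptor channels and empty the reticulum, STIM1 senses the loss, and ORAI1 then opens at the cell surface, a sequence known as store-operated calcium entry. TRPM2 is a cation channel opened by ADP-ribose and calcium and known as a sensor of oxidative stress in phagocytes, and TRPM7 is a magnesium and calcium channel joined to a kinase.

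Sequences before the RefSeq start of the 3 members that stood highest in the KO libraries relative to WT are shown. PU.1 binds purine-rich DNA with a GGAA core, classically the PU box GAGGAA. They are the 250 bases before the RefSeq start of Atp2a3 (chr11:72960919-72961168, plus strand), Trpm2 (chr10:77969873-77970122, minus strand) and Itpr3 (chr17:27057054-27057303, plus strand), from the RefSeq tables of GRCm38.p6, written 5′ to 3′ on the gene's strand. Capitals mark GGAA, or TTCC for a match on the other strand.
Atp2a3: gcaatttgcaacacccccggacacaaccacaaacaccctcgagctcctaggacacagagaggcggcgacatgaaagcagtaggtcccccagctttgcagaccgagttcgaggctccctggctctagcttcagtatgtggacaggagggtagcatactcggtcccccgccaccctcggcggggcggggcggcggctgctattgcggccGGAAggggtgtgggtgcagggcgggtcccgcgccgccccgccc
Trpm2: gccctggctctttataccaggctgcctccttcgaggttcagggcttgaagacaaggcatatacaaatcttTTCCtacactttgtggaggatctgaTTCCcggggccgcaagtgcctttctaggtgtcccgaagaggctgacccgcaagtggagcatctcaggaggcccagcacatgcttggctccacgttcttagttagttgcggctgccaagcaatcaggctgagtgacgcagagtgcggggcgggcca
Itpr3: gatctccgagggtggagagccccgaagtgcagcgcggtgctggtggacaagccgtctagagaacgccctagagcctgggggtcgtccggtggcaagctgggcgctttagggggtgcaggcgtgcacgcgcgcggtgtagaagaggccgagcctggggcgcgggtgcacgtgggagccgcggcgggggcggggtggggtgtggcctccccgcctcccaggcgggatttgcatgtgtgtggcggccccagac

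The PU box letters GAGGAA were searched on both strands in these windows and in those of the other members with a RefSeq entry, 9 windows of 8 genes. None of the 9 windows held GAGGAA, which was present in 23.3% of all 32851 windows of the same length. The shorter core GGAA, which lies inside GAGGAA and was searched after GAGGAA had given no match, was present in 93.4% of all windows. It occurred 1 time in the Atp2a3 window, at position -43 from the RefSeq start, and 2 times in the Trpm2 window, at -180 and -155 on the opposite strand. The Itpr3 window held no GGAA, and the Trpm7 window held 5. The Orai1 window held 2, the Stim1 and Itpr2 windows 1 each, and the Atp2b1 windows 2 and 0. The letters GGGCGG, the GC box bound by Sp1-type factors, were present in 32.7% of all windows. They occurred 5 times in the Atp2a3 window and 1 time each in those of Trpm2 and Itpr3. Among the other members the counts were 8 for Stim1, 4 for Itpr2, 4 and 3 for Atp2b1, 3 for Orai1 and 0 for Trpm7. These matches describe letters in a window only, and no binding was measured. The Trpm2 window lies inside the locus given below (77907722 to 77970563), so by that annotation it is not upstream. The Atp2b1 locus starts at 98914406. Its window at 98914902 to 98915151 lies inside that locus, and most of that at 98914392 to 98914641 does. The Stim1 window ends at 102267818, past the locus start of 102267806.

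The libraries held 17280855 to 18632623 counts. Transcripts of Spi1 itself were at 277 to 320 CPM in the KO libraries and 284 to 340 CPM in the WT libraries, where CPM is the count relative to the TMM-scaled library size. The log2 difference of Spi1 was -0.10 (SE 0.106; edgeR quasi-likelihood test, adjusted p = 0.561). The fit over all libraries thus detected no loss of Spi1 transcripts in the libraries labelled KO. Whether PU.1 was lost in those cells was not tested. Spi1 did pass as lower without KO replicate 1 once libraries were corrected for transcript GC content and length (log2 -0.24, edgeR adjusted p = 0.0156). In that setting 6292 of 11517 genes passed, and the median log2 difference over all genes was -0.12. The log2 difference was -0.05 without KO replicate 1 (edgeR adjusted p = 0.732) and -0.19 with the correction over all libraries (0.228). Counts per gene do not show whether part of a transcript is missing, and each direction below is one between libraries labelled KO and labelled WT. The 4 tested Y-linked genes had at most 4 counts in any KO library and 346 to 1296 in the WT libraries, so sex and label cannot be told apart. KO replicate 1 stood apart from the other KO libraries. Pearson's r of log2 CPM across genes was 0.902 and 0.922 for its pairs with them and 0.955 to 0.959 for its pairs with WT libraries. It was 0.99 for KO replicate 2 with KO replicate 3, and 0.89 to 0.93 for their pairs with WT libraries. Which of the KO libraries are the unusual ones was not tested. The log2 difference of each member and of each calcium gene named is therefore also given without KO replicate 1. Summed levels and shares are given library by library.

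Among the members, Trpm2, Atp2a3 and Itpr3 were the highest in KO relative to WT, and each lay above the WT range in all 3 KO libraries. Atp2b1 and Trpm7 were low in KO replicates 2 and 3 but not in KO replicate 1. Atp2a2, Orai1 and Itpr2 lay within or close to the WT range. In the fit over all 11424 genes tested, 3 of the 10 members passed an adjusted p of 0.05 as higher (Atp2a3, Trpm2 and Itpr3) and 0 as lower, where 2.26% of all genes passed as higher and 1.06% as lower. At an unadjusted p under 0.05 the counts were 4 higher and 0 lower, where 2596 of all 11424 genes passed in either direction. DESeq2 and limma-voom each gave 3 higher and 0 lower. Over all genes DESeq2 gave 885 higher and 459 lower of 15450, and limma-voom 229 higher and 126 lower of 11424. The 3 calls held without KO replicate 1, but only that of Atp2a3 held without KO replicate 2, and 0 members were called without KO replicate 3 or without any single WT library. The members were picked on this same contrast, so nothing is read from these counts.

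**Figure D1:**
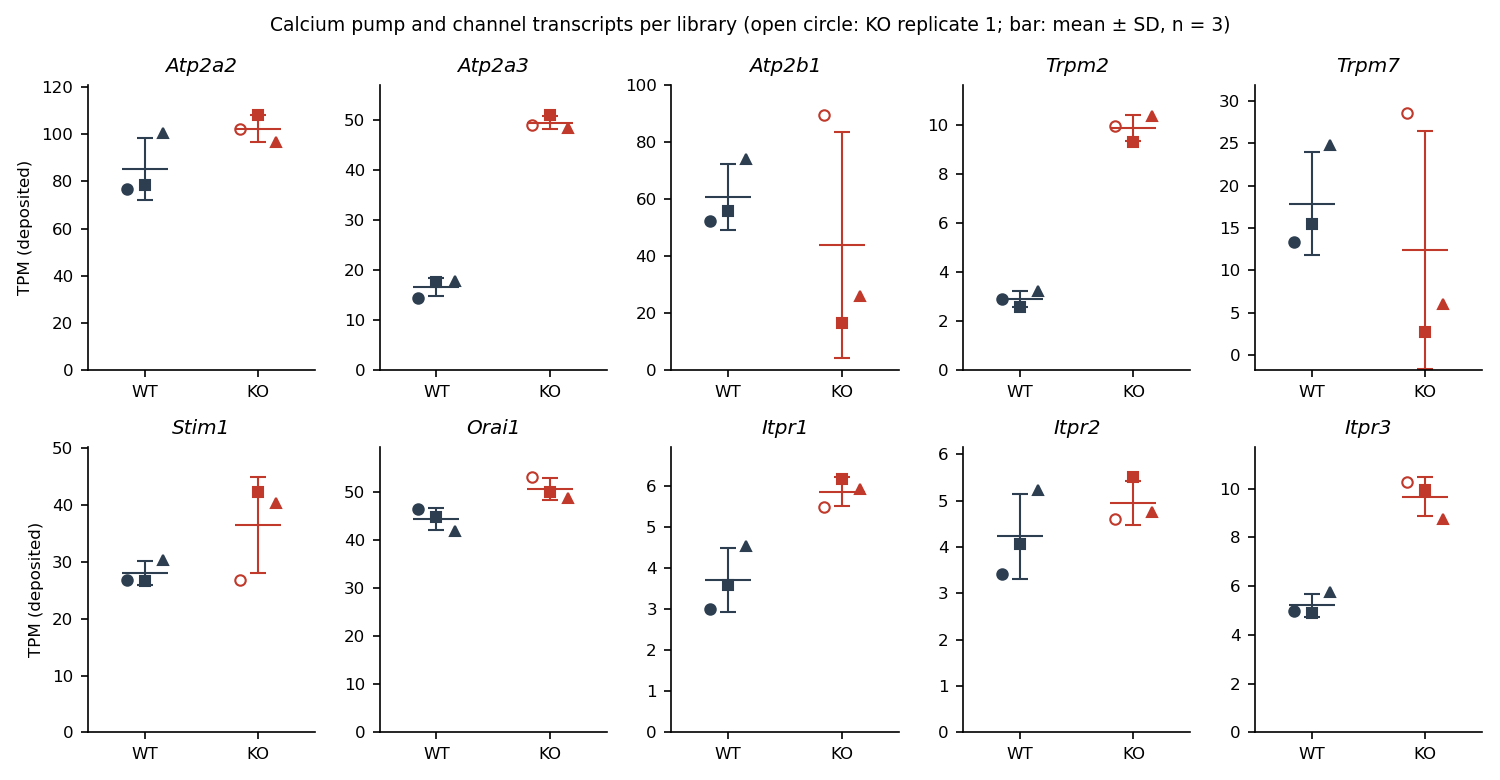
Level of each gene in each library, in TPM as deposited (linear axes that start at 0, or below 0 for Trpm7, where the SD bar passes it). Circles, squares and triangles are replicates 1, 2 and 3, the open circle is KO replicate 1, and the horizontal line with its bar is the mean ± SD of 3 libraries. Atp2a3 lay at 48.3 to 50.9 TPM in KO and 14.5 to 17.8 TPM in WT, and KO replicate 1 was the highest library for Atp2b1 and Trpm7.

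The SERCA pumps were measured through Atp2a2, the widely expressed form, and Atp2a3, the form best known from blood cells, platelets and epithelia. Atp2a3 (gene ID 53313) lies on the plus strand of chromosome 11, from 72961169 to 72993044 in GRCm38, the build of all loci given here. KO replicates 1 to 3 held 119.9, 137 and 128 CPM of Atp2a3, in that order, and WT replicates 1 to 3 held 43.4, 51.2 and 48.7 CPM. The groups did not overlap, and the gap between them was larger than the spread within either. Of the 10 members 4 (Atp2a3, Trpm2, Itpr1 and Itpr3) were higher in CPM in all KO libraries without overlap and 0 were lower. Of all tested genes 18.4% were higher and 12.6% lower in this way, 31.0% together. Mean CPM was 128 ± 8.52 for KO and 47.8 ± 3.98 for WT (SD over 3 libraries each, as for all means here), a 2.69-fold ratio with a fitted log2 difference of 1.43 (SE 0.103). The log2 difference was 1.34 to 1.49 when single libraries were left out and 1.24 once each library was corrected for transcript GC content and length. In a bulk sample, a change in the number of cells that hold a transcript and a change in its amount per cell cannot be told apart.

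Atp2a2 (gene ID 11938, chromosome 5, 122453513 to 122502225, minus strand) was at 245, 286 and 253 CPM in the KO libraries and 225, 224 and 269 CPM in the WT libraries. The ranges overlapped, with means of 261 ± 21.6 and 239 ± 25.4 CPM and a log2 difference of 0.13 (SE 0.112), or 0.18 (SE 0.106) without KO replicate 1. With the GC and length correction that difference was -0.11, and it was -0.16 when KO replicate 1 was also left out. The medians over all genes tested in those settings were -0.08 and -0.12.

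Per transcript length, the SERCA pool was larger in the KO libraries and its make-up differed. Deposited TPM, an abundance already divided by transcript length, was used here, because levels of different genes can be compared only per length. Summed TPM of Atp2a2 and Atp2a3 was 151.8 ± 6.96 in KO and 101.9 ± 14.4 in WT (SD, n = 3 each), and the values of 151, 159 and 145 in KO replicates 1 to 3 and 91.3, 96.1 and 118 in WT replicates 1 to 3 did not overlap. Atp2a3 made up 32.4%, 32% and 33.3% of that sum in KO replicates 1, 2 and 3. It made up 15.9%, 18.3% and 15.1% in WT replicates 1, 2 and 3, and the 2 groups were far apart relative to their spread. On the TPM scale the median log2 ratio of KO to WT over all tested genes was 0.14, against -0.01 on the CPM scale. A TPM ratio between the groups has to be read against that shift, whereas a share within a library does not carry it. A share can still carry effects of GC content, 50.8% for the Atp2a2 transcript and 57.3% for that of Atp2a3, which were not tested.

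**Figure D2:**
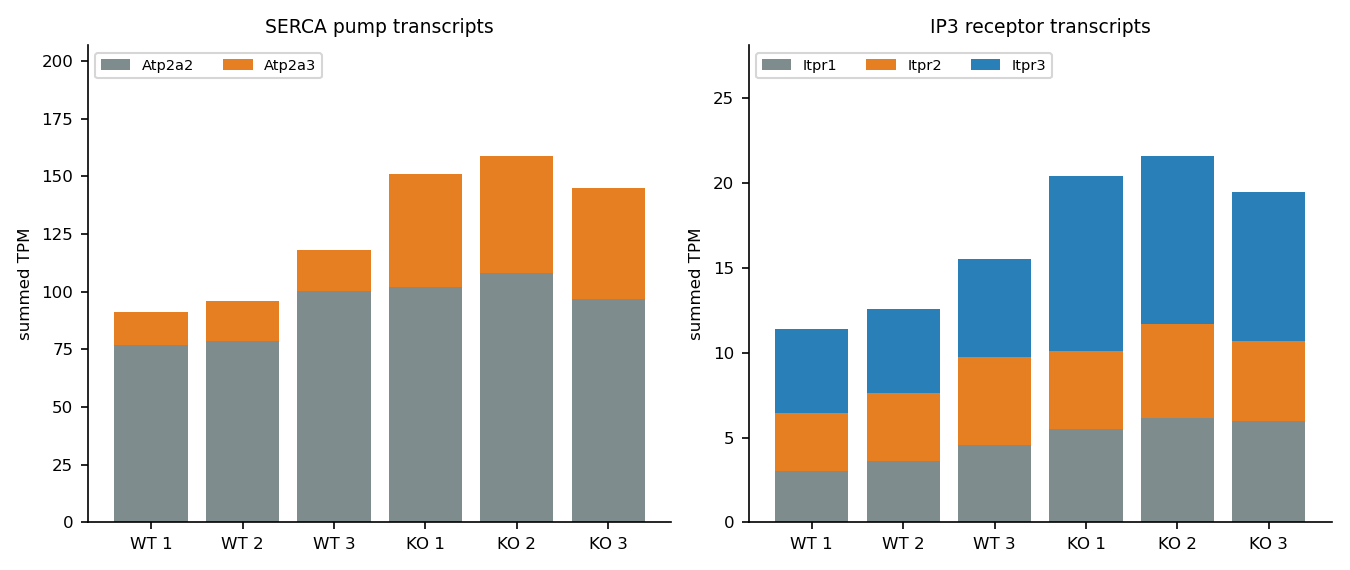
Deposited TPM of SERCA pump genes (left) and IP3 receptor genes (right), stacked for each library (linear axes from 0). The Atp2a3 part is larger in each KO library than in each WT library (32% to 33.3% against 15.1% to 18.3% of the sum), and the summed IP3 receptor TPM is 19.5 to 21.6 in KO and 11.4 to 15.5 in WT.

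Export across the cell surface is represented by Atp2b1, which encodes the PMCA pump found in most tissues (gene ID 67972, chromosome 10, 98914406 to 99026143, plus strand). It was at 328 CPM in KO replicate 1, 66.9 in KO replicate 2 and 103 in KO replicate 3, and at 235, 244 and 304 CPM in the WT libraries. KO replicate 1 thus lay above all WT libraries and the other KO libraries below them all. The group means of 166 ± 142 and 261 ± 37.1 CPM hide that split, and the log2 difference was -0.65 (SE 0.596) over all libraries and -1.60 (SE 0.21) without KO replicate 1.

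Of the TRP channels, Trpm2 was above the WT range in each KO library, and Trpm7 was so in KO replicate 1 and below it in the other KO libraries. Trpm2 (gene ID 28240, chromosome 10, 77907722 to 77970563, minus strand) had 364, 405 and 414 counts in KO replicates 1, 2 and 3 and 129, 110 and 116 counts in WT replicates 1, 2 and 3. These are 20, 20.8 and 21.6 CPM against 7.5, 6.35 and 6.96 CPM, without overlap and with a narrow spread in both groups. The means were 20.8 ± 0.772 and 6.94 ± 0.574 CPM, a 3-fold ratio and a log2 difference of 1.58 (SE 0.12). Leaving out single libraries gave 1.5 to 1.62, and the GC and length correction gave 1.36. In TPM Trpm2 was the lowest of the 10 members in WT, at 2.91 ± 0.335, and stood at 9.9 ± 0.524 in KO.

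Trpm7 (gene ID 58800, chromosome 2, 126791565 to 126876230, minus strand) was at 111 CPM in KO replicate 1, 11.5 in KO replicate 2 and 25.5 in KO replicate 3. The WT libraries were at 63.7, 71.6 and 108 CPM, so this gene showed the same split as Atp2b1, with KO replicate 1 above the WT range and the other KO libraries below it. That split was found for 9.11% of all tested genes. The log2 difference of Trpm7 was -0.71 (SE 0.82) over all libraries and -2.12 (SE 0.389) without KO replicate 1. The ratio of Trpm2 to Trpm7 TPM was 0.35, 3.49 and 1.73 in KO replicates 1, 2 and 3 and 0.131 to 0.218 in the WT libraries.

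Store-operated entry was measured through its sensor and its channel. Stim1 (gene ID 20866, chromosome 7, 102267806 to 102437319, plus strand) stood at 57.9 CPM in KO replicate 1, 100.1 in KO replicate 2 and 94.8 in KO replicate 3, with 69.5, 68 and 73.7 CPM in the WT libraries. Here KO replicate 1 was the lowest library and KO replicates 2 and 3 the highest, the reverse of the split in Atp2b1 and Trpm7, which 7.52% of all tested genes showed. Its log2 difference was 0.26 (SE 0.214) over all libraries, 0.48 (SE 0.084) without KO replicate 1 and -0.01 with the GC and length correction. With that correction the median over all genes tested was -0.08. Orai1 (gene ID 109305, chromosome 5, 123015074 to 123030456, plus strand), the pore subunit, was at 39, 38.9 and 42.2 CPM in KO and 40.4, 39.1 and 32.2 CPM in WT. Its CPM ranges overlapped, with a log2 difference of 0.10 (SE 0.116), or 0.14 (SE 0.123) without KO replicate 1, although its deposited TPM did not overlap (48.8 to 53.1 against 42 to 46.6). Orai1 overlaps the antisense gene Gm2479 in the annotation, and the strand setting of the counting is not given in the sources used here, so reads of that pair cannot be told apart.

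The IP3 receptors, the release channels of the reticulum, differed from each other in how far KO and WT lay apart. Itpr3 (gene ID 16440, chromosome 17, 27057304 to 27122223, plus strand) was at 51, 54.2 and 47.2 CPM in KO and 30.1, 28.9 and 31.8 CPM in WT, without overlap. Its means were 50.8 ± 3.5 and 30.2 ± 1.45 CPM, a log2 difference of 0.75 (SE 0.096; 0.68 to 0.78 with single libraries left out, 0.76 without KO replicate 1). Itpr3 overlaps the antisense gene Itpr3os and Itpr1 the antisense gene Gm44040, with the same limit as for Orai1. Atp2a2, Trpm7, Stim1 and Itpr2 also overlap a pseudogene or an unclassified transcript annotated on the opposite strand. Itpr1 (gene ID 16438, chromosome 6, 108213096 to 108551109, plus strand) was at 29.7, 36.7 and 35 CPM in KO and 19.8, 23 and 27.3 CPM in WT. These ranges lay close together without overlap, with a log2 difference of 0.53 (SE 0.155; 0.41 to 0.65 with single libraries left out, 0.63 without KO replicate 1). Itpr2 (gene ID 16439, chromosome 6, 146108299 to 146502223, minus strand) was at 28.7, 38.5 and 32.7 CPM in KO and 25.6, 30 and 36.3 CPM in WT. The Itpr2 ranges overlapped and the log2 difference was 0.12 (SE 0.174), or 0.23 (SE 0.154) without KO replicate 1.

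Summed TPM of the IP3 receptors was 20.5 ± 1.08 in KO and 13.2 ± 2.13 in WT (SD, n = 3 each), from 20.4, 21.6 and 19.5 in KO replicates 1 to 3 and 11.4, 12.6 and 15.5 in WT replicates 1 to 3. Itpr3 held the largest share in every library, 50.4%, 46% and 45% in KO and 43.6%, 39.1% and 37.1% in WT. The share of Itpr2 was 22.6%, 25.5% and 24.4% in KO and 29.9%, 32.3% and 33.6% in WT, without overlap. That of Itpr1 was 27%, 28.6% and 30.6% in KO and 26.4%, 28.6% and 29.3% in WT, with overlap.

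In the order of the levels per transcript length, 5 of 9 pairs of neighbours had separate TPM ranges in WT and 2 in KO, or 6 in KO without KO replicate 1. In the WT libraries Atp2a2 stood first at 85.2 ± 13.2 TPM, followed by Atp2b1 at 60.7 ± 11.6, Orai1 at 44.5 ± 2.33 and Stim1 at 27.9 ± 2.11, and each of these ranges was separate from the next. Trpm7 at 17.9 ± 6.08 and Atp2a3 at 16.6 ± 1.86 TPM overlapped, and both lay above Itpr3 at 5.21 ± 0.474, Itpr2 at 4.23 ± 0.917, Itpr1 at 3.72 ± 0.778 and Trpm2 at 2.91 ± 0.335, of which each overlapped its neighbour. In the KO libraries Atp2a2 was again separate at the top, at 102.3 ± 5.64 TPM. Orai1 at 50.7 ± 2.22 and Atp2a3 at 49.4 ± 1.36 TPM came next and overlapped. Below them Atp2b1 at 44 ± 39.6 and Trpm7 at 12.4 ± 14 TPM had no firm place because of KO replicate 1. Without that library, Stim1 (40.3 to 42.2 TPM) and Atp2b1 (16.5 to 26.1) followed Atp2a3 and Orai1 with separate ranges, and Trpm7 (2.68 to 6) was last with a range that overlapped that of Itpr2 (4.75 to 5.5).

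**Figure D3:**
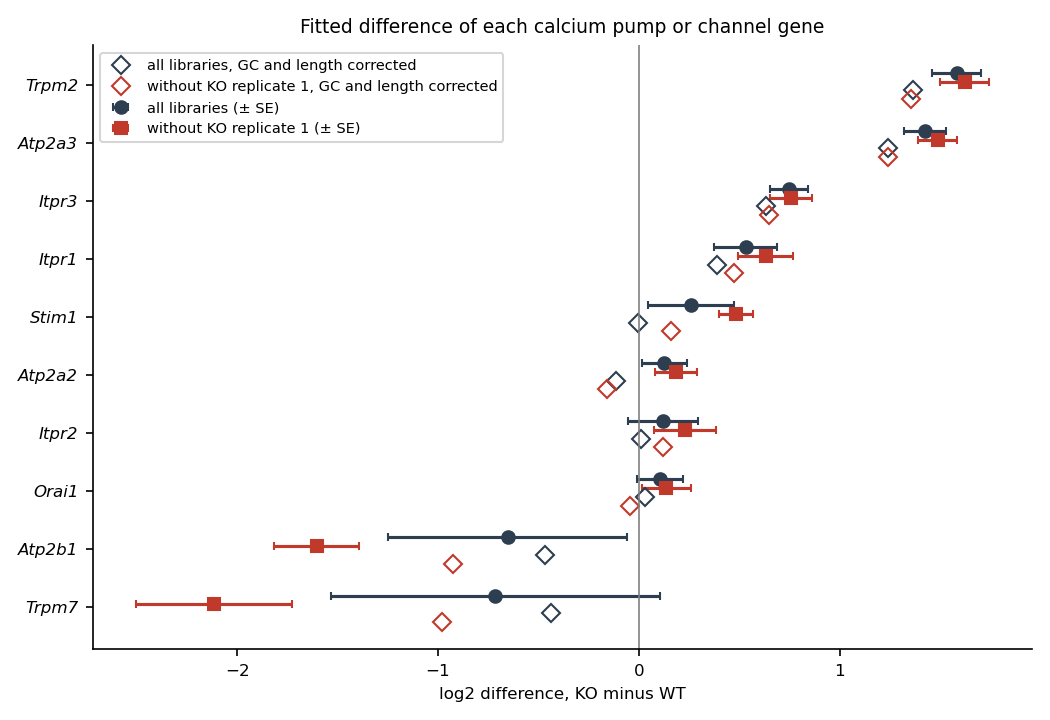
Fitted log2 difference of each gene, KO minus WT, from all libraries (dark circles) and without KO replicate 1 (red squares), with SE bars, and values after the GC and length correction (open diamonds, no error shown). Trpm2, Atp2a3 and Itpr3 lay at 1.58, 1.43 and 0.75 over all libraries and at 1.62, 1.49 and 0.76 without KO replicate 1, while Atp2b1 and Trpm7 went from -0.65 and -0.71 to -1.60 and -2.12 without KO replicate 1.

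The GC content of the transcripts moved with the split of the KO libraries. The longest coding transcripts of Trpm7 and Atp2b1 have a GC content of 40.1% and 42.6% and belong to the lowest quintile of genes by GC content (32.6% to 44.2%, 2256 genes). In that quintile the median log2 ratio of KO replicates 2 and 3 to WT was -1, against -0.06 to 0.14 in the other quintiles. The same ratio was -1.62 for Atp2b1 and -2.13 for Trpm7, below the median of their quintile. In KO replicate 1 the median of the lowest quintile was 0.09, and Atp2b1 and Trpm7 were at 0.33 and 0.46.

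The other 8 members have a GC content of 49.5% to 58.6% and lie in the quintiles whose median for KO replicates 2 and 3 was 0.07 to 0.14. Against those medians Trpm2 stood at 1.61 and Atp2a3 at 1.47 in KO replicates 2 and 3, and at 1.53 and 1.33 in KO replicate 1. By length, Trpm2, Itpr1, Itpr2, Itpr3, Atp2b1 and Trpm7 lie in the quintile of longest transcripts, where the median log2 ratio of KO replicates 2 and 3 to WT was -0.09 and that of KO replicate 1 was 0.20. The part of GC content and length in the members' values was not tested beyond the correction. With the correction and without KO replicate 1, the log2 difference of Atp2b1 went from -1.60 to -0.93 and that of Trpm7 from -2.12 to -0.98. Those of Atp2a3 and Trpm2 went from 1.49 to 1.24 and from 1.62 to 1.36. Between the same settings the median over all genes tested went from 0.02 to -0.12. Without KO replicate 1, 5 members passed as higher (Atp2a3, Trpm2, Stim1, Itpr1 and Itpr3) and 2 as lower (Atp2b1 and Trpm7), where 23.6% and 26.0% of all 11677 genes tested did, and again nothing is read from these counts.

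**Figure D4:**
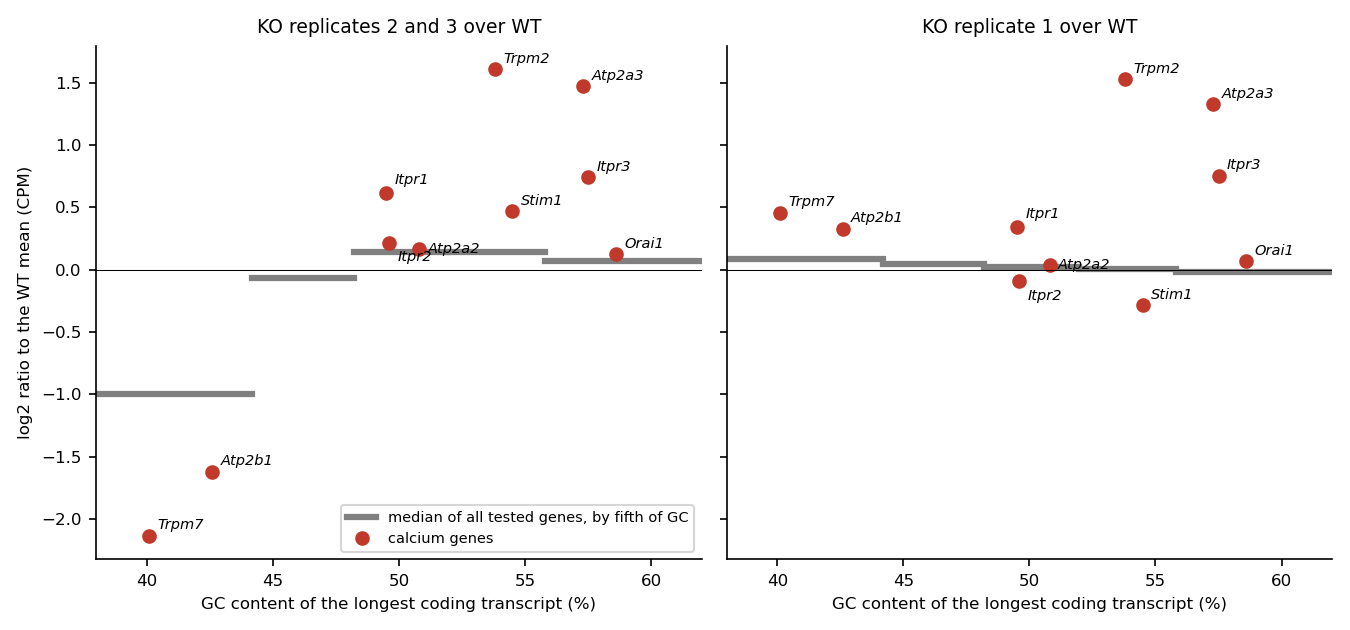
Log2 ratio of CPM to the WT mean against the GC content of the longest coding transcript, for KO replicates 2 and 3 (left) and KO replicate 1 (right). Red points are the 10 genes and grey bars are medians of all tested genes in each quintile of GC content, drawn between 38% and 62%. In the left plot the lowest quintile lies at -1 with Atp2b1 and Trpm7 below it, and Trpm2 and Atp2a3 lie at 1.61 and 1.47.

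Macrophage markers were abundant in all libraries, with a summed level of the 8 markers of 19910 to 44690 CPM in KO and 35430 to 39800 CPM in WT, lowest in KO replicate 1. Lyz2 carried most of that sum, at 13200 CPM in KO replicate 1 and 29700 to 36700 in the other libraries. In KO replicate 1, 5 of the 8 markers lay below the WT range and 3 (Adgre1, Csf1r and Cd14) above it, and those 3 lay above it in all KO libraries. The 4 measured markers of resident peritoneal macrophages summed to only 4.07 to 5.83 CPM in KO and 2.37 to 2.73 in WT. Lymphocyte and neutrophil markers were low in both groups. The 5 B cell markers summed to 1.33 to 3.41 CPM in KO and 1.56 to 1.96 in WT, the 5 measured T and NK cell markers to 0.365 to 0.872 and 0.66 to 1.5, and the 5 measured neutrophil markers to 1.98 to 5.67 and 7.74 to 9.01. The 10 platelet and megakaryocyte markers summed to 172 to 315 CPM in KO and 320 to 394 in WT, or 16.8 to 56.7 and 68.5 to 123 CPM without Itgb3, an integrin chain that macrophages also express. Of these markers 8 were below the WT range in all KO libraries. The other two were Itgb3, at 258 CPM in KO replicate 1 and 252 to 287 in WT, and Pf4, at 44.9, 16.2 and 14.5 CPM in KO replicates 1 to 3 and 17.6 to 21.8 in WT. The 5 fibroblast markers summed to 2.15 CPM in KO replicate 1, 21.1 in KO replicate 2, 33.4 in KO replicate 3 and 5.16 to 8.14 in WT. The measured markers of mast cells (2), eosinophils (2), mesothelial cells (2), endothelial cells (4) and erythroid cells (2) summed to at most 1.13, 2.79, 0.103, 7.6 and 1.5 CPM in any library. No measured marker was at 0 in all libraries, and the part of these cells in the results was not tested.

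Genes that are not members were taken from 9 lists of the calcium pathway, arranged by role. Of 131 genes listed 99 were tested, and 4 rose and 3 fell (edgeR quasi-likelihood test, adjusted over all 11424 genes), 7.07% against 3.32% of all genes. Orai2, Plcg2, Nfatc2 and Camk1d rose, and Tpcn2, Plcb1 and Calm2 fell. The median log2 difference of the 99 genes was -0.04, against -0.01 over all genes tested. None of the 7 stayed past the threshold without KO replicate 2, KO replicate 3 or any single WT library, and all 7 did without KO replicate 1, where 49.5% of the 99 genes and 49.6% of all genes passed. Without KO replicate 1 the log2 differences of Orai2, Plcg2, Nfatc2 and Camk1d were 0.62, 0.61, 0.93 and 0.60, and those of Tpcn2, Plcb1 and Calm2 were -0.79, -2.42 and -1.11.

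**Figure D5:**
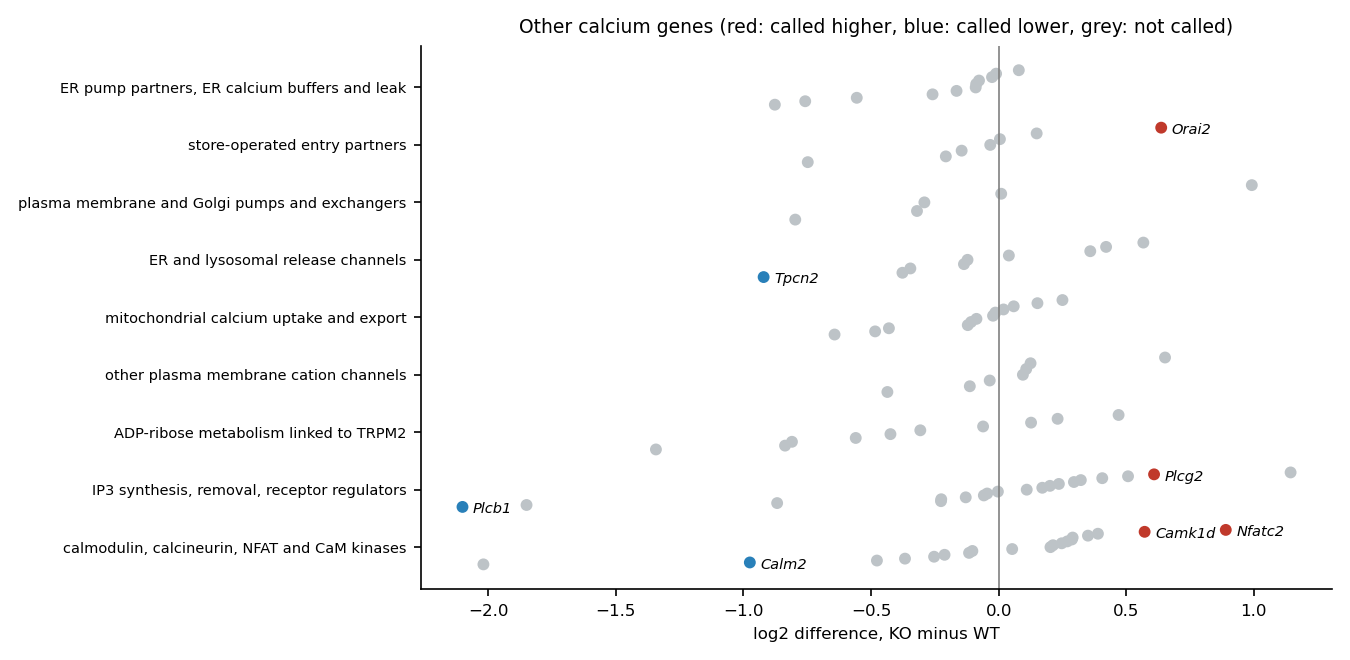
Fitted log2 difference, KO minus WT, of the 99 other calcium genes tested, by list. Red points passed an adjusted p of 0.05 as higher (4 genes), blue points as lower (3 genes) and grey points did not pass, and the vertical line is at 0.

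Of the 7 store-operated entry partners 1 rose and 0 fell. The gene that rose was Orai2, a channel subunit that assembles with ORAI1, at 52.8, 49.2 and 49.5 CPM in KO and 33, 32.7 and 31.8 CPM in WT. It was 1.56-fold higher (log2 0.64, SE 0.082, edgeR adjusted p = 0.0234), without overlap, and its adjusted p was 0.112 to 0.224 when a library other than KO replicate 1 was left out. With the GC and length correction it no longer passed (log2 0.41, adjusted p = 0.114). Of the 9 tested release channels other than IP3 receptors 0 rose and 1 fell, Tpcn2, a channel of endosomes and lysosomes. Tpcn2 was at 44.5, 55.8 and 59.7 CPM in KO against 87.7, 104 and 112 CPM in WT, a fold of 0.528 (log2 -0.92, SE 0.151, adjusted p = 0.0403, or 0.06 with upper-quartile factors).

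Of the 19 genes for IP3 synthesis, removal and receptor regulation 1 rose and 1 fell, both phospholipases C, the enzymes that make IP3. Plcg2, the form used downstream of immune receptors, was at 203, 210.1 and 189 CPM in KO and 136, 128 and 131 CPM in WT. Its ratio was 1.53 (log2 0.61, SE 0.08, adjusted p = 0.0245), and it did not pass with the GC and length correction (adjusted p = 0.0985). Plcb1, a form driven by G proteins, was scarce, at 0.66, 0.359 and 0.365 CPM in KO and 1.92, 1.85 and 2.22 CPM in WT (log2 -2.10, SE 0.33, adjusted p = 0.0387).

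Of the 19 calcium sensors and effectors 2 rose and 1 fell. Nfatc2, a transcription factor that calcineurin brings into the nucleus, was at 46.4, 48.3 and 49.6 CPM in KO and 27.8, 24.1 and 25.9 CPM in WT. It was 1.85-fold higher (log2 0.89, SE 0.095, adjusted p = 0.0189). Camk1d, a calmodulin-dependent kinase, rose from 46 ± 3.45 to 68.4 ± 1.78 CPM (SD, n = 3 each; log2 0.57, SE 0.091, adjusted p = 0.0387). Calm2, which encodes the calcium sensor calmodulin, fell from 338 ± 13.6 to 172 ± 38.9 CPM (log2 -0.97, SE 0.176, adjusted p = 0.0471). Its transcript has a GC content of 42.7%, within the lowest quintile, and with the GC and length correction it lay at -0.51 (adjusted p = 0.0507). Calm2 also did not pass when only genes with a mean of 10 CPM or more were tested (adjusted p = 0.0546). The adjusted p of these 3 genes and of Tpcn2, Plcg2 and Plcb1 was between 0.0822 and 0.244 when a library other than KO replicate 1 was left out.

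In the other 5 lists edgeR called 0 genes over all libraries. For comparison, 2596 of all 11424 genes tested had an unadjusted p under 0.05. DESeq2 called 1344 of 15450 genes and limma-voom 355 of 11424. Of the 11 tested partners and buffers of the reticulum, 3 had an unadjusted p under 0.05, and DESeq2 called 1 and limma-voom 0. The gene with the smallest p was Vmp1, a membrane protein of the reticulum that regulates SERCA, at 111 ± 17.6 against 164 ± 4.16 CPM (adjusted p = 0.0723). Of the 5 tested surface and Golgi pumps and exchangers, 3 had an unadjusted p under 0.05 and DESeq2 and limma-voom called 0. Atp2b4, another PMCA pump, had the smallest p there, at 7.32, 3.85 and 3.33 CPM in KO against 2.25 to 2.58 CPM in WT (adjusted p = 0.168). Of the 12 mitochondrial genes, 3 had an unadjusted p under 0.05, and DESeq2 called 2 and limma-voom 0. Mcur1, a regulator of the mitochondrial uniporter, averaged 52.4 ± 2.95 CPM in KO and 73.3 ± 5.72 in WT (adjusted p = 0.0581).

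Of the 7 other cation channels tested, 1 had an unadjusted p under 0.05, the ATP-gated channel P2rx7, at 72, 126 and 117 CPM in KO and 60.6 to 72.9 CPM in WT (adjusted p = 0.165), and DESeq2 and limma-voom called 0. Of the 10 genes of ADP-ribose metabolism, which makes or removes the ligand of TRPM2, 3 had an unadjusted p under 0.05, and DESeq2 called 1 and limma-voom 0. Parp2, a polymerase of ADP-ribose, had the smallest p, at 20.6 ± 1.13 against 27.6 ± 1.56 CPM (adjusted p = 0.0778). Parp1, the main such polymerase, was at 114, 161 and 140 CPM in KO and 97.2 to 104 in WT (adjusted p = 0.123). Cd38, an enzyme that makes ADP-ribose from NAD, was at 0.055, 1.49 and 2.87 CPM in KO and 3.43 to 4.04 in WT (adjusted p = 0.407). Parp1 and Cd38 were named after their values were seen. Of the 10 ADP-ribose genes, 1 passed as higher and 4 as lower without KO replicate 1, or 50%, where 49.6% of all genes passed. Without KO replicate 1, Vmp1 (log2 -0.68), Atp2b4 (0.58), Mcur1 (-0.51), P2rx7 (0.88), Parp2 (-0.42) and Parp1 (0.61) passed, with edgeR adjusted p between 0.000297 and 0.04, and Cd38 (-0.77) did not, at 0.0543. Without any other single library the adjusted p of those 6 genes was between 0.154 and 0.439. Mcur1 also passed with DESeq2 (adjusted p = 0.00131) and with the GC and length correction (0.0303), and Vmp1 (0.00483) and Parp2 (0.0196) with DESeq2.

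The genes with profiles over the 6 libraries most like those of Atp2a3 and Trpm2 were sought among 8150 genes averaging 10 CPM or more. Members and predicted genes were not candidates, so Atp2a3 and Trpm2 could not be named for each other. Likeness was the root mean square difference of log2 CPM after each gene's mean was subtracted. Nearest to Trpm2 were Nlrp3, the sensor of an inflammasome, with a difference of 0.082, then Tiam1 (0.129), Pcdhgc3 (0.131), Plxdc2 (0.141) and Fam129a (0.145). Nearest to Atp2a3 were Pcdhgc3 (0.104), Nlrp3 (0.11), Slc7a1 (0.118), Capn5 (0.132) and Fam129a (0.138). Nlrp3 was at 71.2 ± 3.81 CPM in KO and 24.2 ± 0.38 CPM in WT, close in ratio to the 3-fold of Trpm2. Pcdhgc3 shares exons with other genes of its protocadherin cluster, so its counts are uncertain. These genes were picked for their likeness, which takes in the difference between the groups, and their values are a description.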

How the data were processed

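Messenger RNA was captured on beads, fragmented by heat and sequenced on an Illumina instrument, per the labels' protocols. The submitters' processing notes name fastp 0.18.0 and the build GRCm39; names for the aligner, counter, strand setting and annotation were not given in the sources used here. Gene starts in the table are those of GRCm38 for 13128 of 15422 genes matched to RefSeq of GRCm38.p6, so loci are from GENCODE M21 (GRCm38). The authors deposited estimated counts, of which 4.82% to 5.49% per library were not whole, and these were rounded. The authors also deposited TPM and FPKM, per the file headers, used for levels per length. The log2 fold changes, p-values and q-values that the authors deposited beside them, made with DESeq2 per the file headers, are not reported here.

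Genes were filtered with filterByExpr (minimum count 10), which left 4045 untested, scaled with TMM factors and compared with the quasi-likelihood test of edgeR 4.0.16 (R 4.3.3), Benjamini-Hochberg adjusted. The call threshold was an adjusted p of 0.05. Alternatives used other factors, DESeq2 1.42.0, limma-voom (limma 3.58.1), other filters, a replicate block, each library left out, and smooth GC and length terms (mgcv 1.9.3) from GENCODE transcripts, known for 97.1% of genes. The test was checked on simulated data with a fixed dispersion, no outlying library and no GC effect. That check therefore does not show how the test does on libraries like these. Genes listed but missing from the table were not analysed here.

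The members and the 9 pathway and 12 marker lists were chosen with earlier results of these data known. The genes named are the members, Spi1, per pathway list up to 3 called genes, by size of change, averaging 1 CPM or more (with none called, the gene of smallest p), and the 5 most like profiles. Since replicates may not be separate cultures or animals, p-values measure only how these 6 libraries vary, which could be technical variation.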

Additional observations from a re-analysis of the deposited data

How the results depend on the processing

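The count of genes called (379) was 376, 382, 355 and 293 with RLE factors, upper-quartile factors, limma-voom and no filter. It moved to 1344 with DESeq2, which also had no count filter (15450 genes fitted against 11424), 229 with a mean of at least 10 CPM, 571 with the GC and length correction and 6292 with that correction without KO replicate 1, and ranged from 5 to 5793 with single libraries left out (5793 without KO replicate 1, 5 without WT replicate 2). Of the called genes 68.1% were higher in KO, or 51.3% with the GC and length correction, to be read against the shift of the median given below. The count of other calcium genes called (7) moved to 16 with DESeq2 and 55 with the correction without KO replicate 1, and ranged from 0 to 49 with single libraries left out (49 without KO replicate 1, 0 without any other library, where 18 to 24 had an unadjusted p under 0.05). Over all genes, 1535 to 2070 had an unadjusted p under 0.05 when 1 library other than KO replicate 1 was left out. Without KO replicate 1, 6 pairs of neighbouring members had separate TPM ranges in KO, against 2. The cause of these changes was not tested. With the replicate number as a block edgeR called 0 genes, with 1976 at an unadjusted p under 0.05, and 0 other calcium genes, with 24 at an unadjusted p under 0.05. Whether the numbers pair the samples could not be decided. The deviations of same-numbered libraries correlated across genes at -0.162, 0.246 and -0.271, and not every library was most like its own number. KO replicate 1 stood apart from its group, and the values of KO replicates 2 and 3 moved together. These were 0.165 and 0.12 with WT replicate 1, 0.246 and 0.206 with WT replicate 2, and -0.343 and -0.271 with WT replicate 3. The correlations are thus not separate evidence for or against pairing. Members kept the direction of their log2 difference in all alternatives except Atp2a2 (-0.11 and -0.16 with the corrections), Stim1 (-0.01 with the correction), Orai1 (-0.04 with the correction without KO replicate 1) and Itpr2 (-0.02 without KO replicate 2 or WT replicate 1). With the correction the median log2 difference over all genes was -0.08, or -0.12 without KO replicate 1, against -0.01 in the main fit. Values with the correction have to be read against that shift. Trpm2, with 110 to 414 counts per library, is the member with the least depth behind it.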
